A study of Mus musculus with 45 samples.

Results

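Milk protein genes ran from near the bottom to near the top of the array's range among Trp53-null mouse mammary tumours that kept an epithelial programme, and the 12 such tumours with the highest casein RNA were set against the 12 with the lowest. Both groups were chosen by expression values of these arrays. From 45 tumours, the 9 with the lowest mean log2 level of Cdh1, Epcam and Esrp1 were set aside. These genes encode E-cadherin, the epithelial cell adhesion molecule and an epithelial splicing regulator, and the tumours set aside are called junction-poor here. The other 36 were ranked by the mean log2 level of Csn1s1, Csn1s2a, Csn2 and Csn3, which encode the alpha-s1, alpha-s2-like, beta and kappa caseins. The top 12 are called milk-high and the bottom 12 milk-low, with 12 middle tumours between them.

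Each tumour grew from a Trp53-null BALB/c mammary fragment placed in the inguinal fat pad of a wild-type BALB/c female of 10 weeks, cleared of its own epithelium at 3 weeks. Hosts, but not fragments, received silicon ions (Si), densely ionizing charged particles, or a sham exposure 3 days before transplantation, and tumours were taken at 1 cm3 within 600 days. The study's question is what irradiation of the host does to such tumours, and the milk-high and milk-low groups cut across it. The series holds 18 tumours of sham hosts, 9 of hosts given 10 cGy, 10 of hosts given 30 cGy and 8 of hosts given 80 cGy, each on 1 array. The milk-high group held 3 tumours of sham hosts and 2, 5 and 2 of hosts given 10, 30 and 80 cGy. The milk-low group held 6 tumours of sham hosts and 3, 1 and 2 at the same doses. All 24 tumours therefore lack Trp53 in the tumour epithelium and carry it in the host's fat pad, vessels and immune cells. Nothing in the labels says that a host was pregnant or lactating.

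Milk protein genes are switched on in alveolar luminal cells of the mammary gland during pregnancy and lactation. Prolactin acts through its receptor and the kinase Jak2 on the transcription factor Stat5, with glucocorticoid and the transcription factor Elf5 as partners, and Stat5 binds an interrupted palindrome in the promoters of several casein and whey protein genes. Caseins form the micelles of milk, whey proteins stay in solution, and milk fat leaves the cell in globules wrapped in membrane that carries Btn1a1, Xdh, Muc1 and Mfge8. Caseins are also made at lower levels in the gland of virgin mice, so their RNA alone does not mark lactation.

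The promoters of the ranking genes and of the genes called below are shown where they help to compare them, because Stat5 is known to act on casein promoters. Of the 4 caseins and the 6 genes that passed the test described below, 8 had an entry among the RefSeq promoters of build GRCm38.p6. Each entry spans 250 bases before the gene's start and 50 bases after it. The palindrome searched was TTCNNNGAA, which reads the same on both strands. It occurred in 8.298% of 32851 promoters of this length. It was present in 3 of the 3 ranking genes with an entry. In Csn1s1 it began at -100, in Csn2 at -93 and in Csn1s2a, as TTCTTAGAA, at 21 bases after the start. Among the 5 called genes with an entry it was found in Glycam1, at -145. In Lalba, Wap, Muc1 and Fam174b these letters did not occur in the window. The 250 bases before the start follow, 5′ to 3′ on the gene's strand, with the palindrome in capitals, for 2 caseins and for the 3 genes with the largest differences. Csn1s1 lies at chr5:87665958-87666207 on the plus strand, and on the minus strand Csn2 lies at chr5:87699426-87699675, Glycam1 at chr15:103565082-103565331, Lalba at chr15:98482684-98482933 and Wap at chr11:6638650-6638899.
Csn1s1: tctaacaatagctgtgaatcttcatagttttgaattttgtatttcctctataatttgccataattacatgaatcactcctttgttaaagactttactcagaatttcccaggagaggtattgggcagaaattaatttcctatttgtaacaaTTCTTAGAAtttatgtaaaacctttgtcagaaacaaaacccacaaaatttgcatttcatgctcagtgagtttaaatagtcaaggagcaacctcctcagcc
Csn2: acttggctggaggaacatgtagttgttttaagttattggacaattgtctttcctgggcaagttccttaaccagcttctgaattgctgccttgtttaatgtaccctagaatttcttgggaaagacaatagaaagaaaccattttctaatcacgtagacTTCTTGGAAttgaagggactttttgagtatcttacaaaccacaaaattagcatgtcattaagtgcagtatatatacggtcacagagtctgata
Glycam1: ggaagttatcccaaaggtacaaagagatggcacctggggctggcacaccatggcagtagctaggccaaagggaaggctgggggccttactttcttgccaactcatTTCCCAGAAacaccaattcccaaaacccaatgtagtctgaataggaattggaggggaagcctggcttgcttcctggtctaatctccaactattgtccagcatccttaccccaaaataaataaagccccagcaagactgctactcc
Lalba: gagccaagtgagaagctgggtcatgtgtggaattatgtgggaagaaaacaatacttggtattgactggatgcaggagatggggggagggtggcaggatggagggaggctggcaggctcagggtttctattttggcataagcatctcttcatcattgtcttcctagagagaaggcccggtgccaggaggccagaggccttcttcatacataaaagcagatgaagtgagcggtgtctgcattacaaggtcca
Wap: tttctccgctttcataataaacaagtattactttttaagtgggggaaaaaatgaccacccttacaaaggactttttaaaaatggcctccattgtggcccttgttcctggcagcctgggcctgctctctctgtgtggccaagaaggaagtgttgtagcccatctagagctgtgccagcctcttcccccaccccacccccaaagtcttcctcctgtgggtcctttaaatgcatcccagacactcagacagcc
The matches describe letters in these windows and were not tested against the expression values.

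The ranking genes are given here as a description, since they chose the tumours. Values are log2 expression after RMA, the authors' normalization, so 1 unit is a factor of 2 on the linear scale. The casein mean was 11.69 ± 0.55 in milk-high tumours and 6.90 ± 1.22 in milk-low tumours (SD, n = 12 each), against 9.74 ± 0.66 in the middle tumours. Csn2 ranged from 10.87 over a median of 12.62 to 13.30 in milk-high tumours, and from 5.79 over a median of 7.23 to 10.11 in milk-low tumours. Csn1s1 ranged from 10.54 over 12.17 to 12.85 in milk-high tumours and from 3.31 over 7.15 to 9.90 in milk-low tumours. For both genes, every milk-high tumour lay above every milk-low tumour.

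The other ranking genes separated the groups by different margins. Csn1s2a ranged from 8.32 over a median of 11.41 to 12.86 in milk-high tumours and from 3.89 over 4.76 to 7.26 in milk-low tumours, with no overlap. Csn3 ranged from 9.51 over a median of 11.03 to 12.28 in milk-high tumours and from 3.41 over 7.86 to 10.19 in milk-low tumours. Csn3 was the ranking gene whose groups overlapped. The milk-high tumour at 9.51, sham replicate 9, lay below milk-low tumours at 10.19, 9.90, 9.83 and 9.63. The milk-low tumour at 10.19 was sham replicate 15. At the edges of the groups the ranking was nearly continuous. The last milk-high tumour had a casein mean of 10.77, as had the first middle one, and the last middle tumour had 8.85 against 8.52 in the first milk-low tumour.

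**Figure D1:**
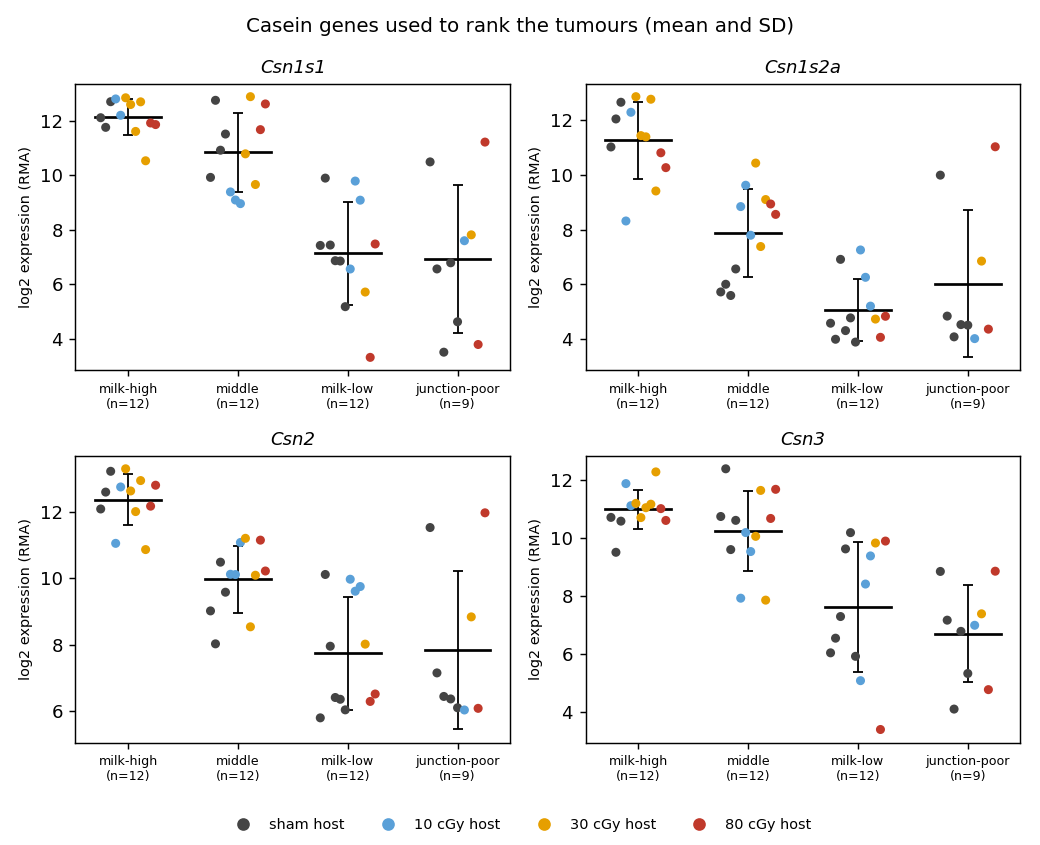
The plot of the 4 ranking genes gives log2 expression on the vertical axis for each tumour, with milk-high, middle, milk-low and junction-poor tumours from left to right and the host's exposure in colour. Black lines are the mean and SD. Csn1s1, Csn1s2a and Csn2 do not overlap between milk-high and milk-low tumours. For Csn3, 1 milk-high tumour at 9.51 lies below several milk-low tumours, which reach 10.19.

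Levels of the genes of the first step were close in the groups compared. Both groups had passed the same cut on these genes, so their likeness is given as a description. The mean of Cdh1, Epcam and Esrp1 was 10.61 ± 0.60 in milk-high tumours and 10.58 ± 0.78 in milk-low tumours, against 6.11 ± 1.00 in the 9 junction-poor tumours. The junction-poor tumour nearest to the limit had 8.10 and the lowest tumour kept had 8.66. The luminal keratins, which the rule did not use, were high in both groups. Krt8 averaged 12.57 ± 0.41 in milk-high tumours and 12.15 ± 1.11 in milk-low tumours, and Krt18 averaged 12.08 ± 0.48 in milk-high tumours and 11.80 ± 0.92 in milk-low tumours. In the junction-poor tumours Krt8 averaged 10.51 ± 1.90 and Krt18 9.33 ± 1.63, and the lowest milk-low tumour, at 8.94 for Krt8, lay within 1 SD of that mean. In bulk tumour RNA, fewer cells of a type and less RNA per cell cannot be told apart.

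Outside the ranking genes, 6 genes differed between milk-high and milk-low tumours, and all 6 were higher in milk-high tumours. They were Lalba, Glycam1, Wap, Muc1, Btn1a1 and Fam174b. Of these, 5 encode proteins of milk or of the milk fat globule. The test was limma's moderated test on 11515 genes with Benjamini-Hochberg adjustment at 0.05, and 0.0521% of the genes tested passed. No gene passed on the lower side (0 of 11515, where 322 genes had an unadjusted limma p under 0.05), and the lowest adjusted p there was 0.409. On the higher side, 303 genes had an unadjusted p under 0.05. Together these were 625 of 11515 genes, and a share of about 0.05 would have such a p if no gene differed. The unadjusted counts are therefore not read as differences. Tumours were split on caseins measured on the same arrays, so a call says that a gene goes with casein RNA across these tumours. Only genes above the table's median, 5.67, in 8 or more of the 24 tumours were tested. In milk-low tumours Glycam1 and Wap lay below that median in 11 of 12, and Lalba and Btn1a1 in 10 of 12, so these 4 genes passed the filter through the milk-high group. The files used here do not mark background, and no linear fold is given for them, because low values can understate a difference.

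Lalba encodes alpha-lactalbumin, the whey protein that turns a galactosyltransferase into lactose synthase. It lies on chromosome 15 and was read by probe set 10432157. Its level ranged from 7.21 over a median of 9.77 to 12.79 in milk-high tumours, and from 3.33 over a median of 4.20 to 10.65 in milk-low tumours. The difference was 5.02 ± 0.69 (SE, limma adjusted p = 0.000594). The groups overlapped through a single milk-low tumour, sham replicate 15 at 10.65, while the next highest milk-low tumour was at 6.23, below every milk-high tumour.

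Glycam1 encodes a mucin-like glycoprotein secreted into milk and also lies on chromosome 15 (probe set 10433172). It ranged from 5.78 over a median of 8.85 to 12.24 in milk-high tumours, and from 4.03 over 4.88 to 6.40 in milk-low tumours. The difference was 4.65 ± 0.62 (limma adjusted p = 0.000594). In 10 of the 12 milk-high tumours it exceeded every milk-low tumour. The exceptions were 80 cGy replicate 7, at 5.78, and 30 cGy replicate 8, at 6.35.

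Wap, on chromosome 11 (probe set 10384212), encodes whey acidic protein, the classic late marker of alveolar differentiation in the mouse. It ranged from 5.36 over a median of 8.34 to 11.66 in milk-high tumours and from 4.06 over 4.57 to 6.25 in milk-low tumours. The difference was 3.64 ± 0.51 (limma adjusted p = 0.000594). In 11 of 12 milk-high tumours Wap exceeded every milk-low tumour, the exception again being 30 cGy replicate 8.

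Genes of the milk fat globule membrane moved less. Btn1a1, on chromosome 13 (probe set 10408175), encodes butyrophilin, which anchors the globule's coat. It ranged from 5.23 over a median of 7.37 to 10.23 in milk-high tumours and from 4.47 over 4.95 to 6.98 in milk-low tumours. The difference was 2.27 ± 0.42 (limma adjusted p = 0.0272), and 7 of 12 milk-high tumours exceeded every milk-low tumour. Muc1, on chromosome 3 (probe set 10493474), encodes the transmembrane mucin of the luminal surface. It ranged from 8.00 over a median of 10.08 to 10.65 in milk-high tumours and from 5.62 over 7.34 to 10.34 in milk-low tumours. The difference was 2.32 ± 0.44 (limma adjusted p = 0.0343), 4.98-fold, and the groups overlapped more widely, with 3 milk-high tumours above every milk-low one. Both calls were near the threshold, and without the filter on low values neither passed (adjusted p = 0.0523 for Btn1a1 and 0.0659 for Muc1). When each of the 24 tumours was left out in turn, Btn1a1 lost its call without 12 of them (adjusted p 0.0520 to 0.0686) and Muc1 without 17 (0.0583 to 0.0887). Lalba, Glycam1, Wap and Fam174b kept theirs whichever tumour was left out, with an adjusted p of at most 0.00359.

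Fam174b, which encodes a predicted membrane protein, stood outside the lists of milk and luminal genes. It lies on chromosome 7 (probe set 10554156). It ranged from 6.27 over a median of 7.42 to 8.70 in milk-high tumours and from 5.18 over 5.74 to 6.96 in milk-low tumours. The difference was 1.61 ± 0.24 (limma adjusted p = 0.00122), 3.04-fold, and 9 of 12 milk-high tumours exceeded every milk-low tumour. Its highest values in the series lay outside both groups, at 9.21 in sham replicate 2, a middle tumour, and at 9.10 in 10 cGy replicate 1, a junction-poor tumour.

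**Figure D2:**
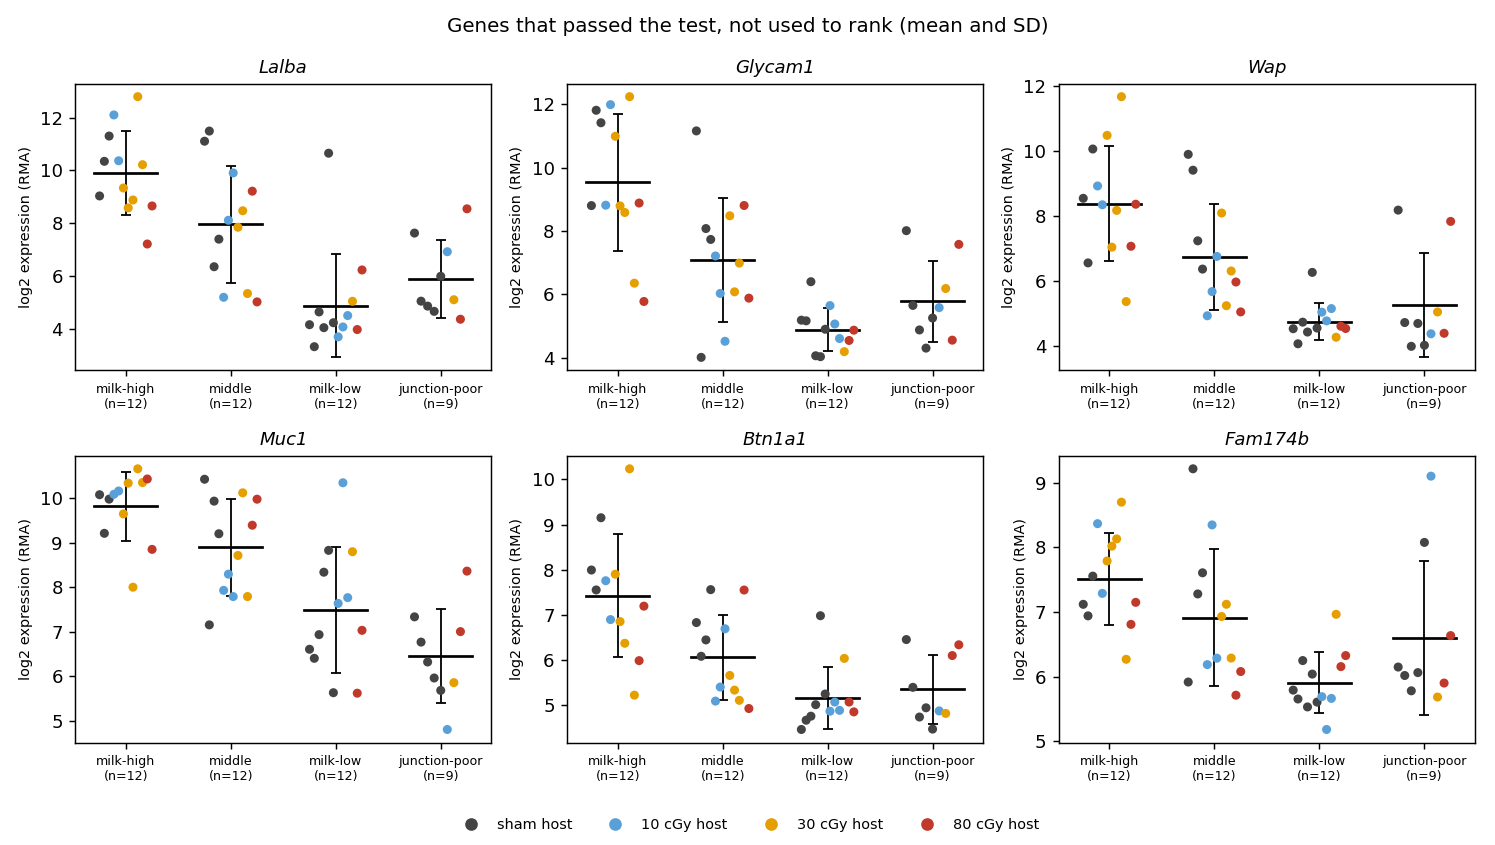
The plot of the 6 called genes gives log2 expression by tumour, with milk-high, middle, milk-low and junction-poor tumours from left to right, the host's exposure in colour and the mean and SD in black. For all 6 genes the middle mean lies between the milk-high and milk-low means, and sham replicate 15 stands out among milk-low tumours for Lalba, at 10.65.

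The 12 middle tumours took no part in the test, but come from the same casein ranking as the groups compared. For all 6 called genes their mean lay between the means of the groups compared, for example 7.95 ± 2.22 for Lalba, against 9.90 ± 1.60 in milk-high and 4.88 ± 1.96 in milk-low tumours. For Wap the middle mean was 6.73 ± 1.64, and for Glycam1 it was 7.08 ± 1.97. How often a middle mean lay between the groups was not counted over all genes tested. Single middle tumours reached the levels of the milk-high group. Sham replicate 1 had 11.10 for Lalba, 9.89 for Wap and 11.16 for Glycam1, with a casein mean of 8.85.

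The milk genes did not move as a block in every tumour. Sham replicate 2, a middle tumour, had 11.49 for Lalba and 9.40 for Wap but 4.01 for Glycam1, the lowest Glycam1 value of the series. The milk-low tumour sham replicate 15 showed a similar split, with Lalba at 10.65, Wap at 6.25 and Btn1a1 at 6.98, each the highest of its group, beside Glycam1 at 4.03, the lowest of its group. Of its caseins, Csn3 was at 10.19, while Csn2 was at 6.35, Csn1s1 at 6.85 and Csn1s2a at 4.78. Sham replicate 15 also had the highest adipocyte and skeletal muscle scores of the milk-low group, 3.53 and 4.75 on the scale described below. Among milk-high tumours, 30 cGy replicate 8 had Lalba at 10.21 and Muc1 at 10.35 beside the group's lowest Wap, Btn1a1 and Fam174b values. Without sham replicate 15 the number of calls was 9, the highest when single tumours were left out. Those gained were Chpt1, Folr1 and Igsf5, named here after their values were seen.

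The junction-poor tumours, also outside the test, mostly had low values of these genes. Their casein mean ranged from 4.54 to 10.77. The junction-poor tumours with the highest casein means were 80 cGy replicate 8, at 10.77, and sham replicate 5, at 10.22. These had Lalba at 8.55 and 7.63, Wap at 7.82 and 8.17, and Glycam1 at 7.58 and 8.01. In the other 7, Lalba ranged from 4.37 to 6.92, Wap from 3.98 to 5.04 and Glycam1 from 4.30 to 6.18.

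The array labels carry short codes, and codes that share a stem may come from 1 animal or transplant, which the labels do not say. In the milk-high group, 6 of the 12 tumours fell into 3 such pairs, whereas the 12 milk-low tumours had 12 different codes. Stems were also shared with tumours outside the comparison. Milk-high 80 cGy replicate 7 shared its stem with a middle tumour, and milk-high sham replicate 14 with a junction-poor one. Milk-low sham replicate 11 and 10 cGy replicate 7 each shared theirs with a middle tumour. The members of a pair within the milk-high group could differ as much as the whole group did. In the pair of 30 cGy replicates 7 and 8, Wap was 11.66 and 5.36, Btn1a1 10.23 and 5.23, Glycam1 12.24 and 6.35, and Lalba 12.79 and 10.21. These were the highest and lowest milk-high values for Wap and Btn1a1. In the pair of 30 cGy replicates 5 and 6, Wap was 7.03 and 8.16 and Lalba 8.58 and 8.88. In the pair of sham replicates 8 and 9, Wap was 8.53 and 6.55 and Lalba 9.03 and 10.34. With the code stem as a random block, limma called 4 genes. Muc1 (adjusted p = 0.0800) and Btn1a1 (0.127) were no longer among them. With 1 tumour kept per stem, limma called 7 genes, the same 6 and Ltf. Within each pair the tumour with the higher casein mean was kept, so 30 cGy replicate 8 was left out. The tumours kept were thus chosen by the ranking values.

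The genes whose level followed the casein mean most closely over all 45 tumours, by Pearson's r, were Muc1 (0.78), Wap (0.77), Glycam1 (0.75), Trf (0.72) and Ltf (0.72). The coefficients describe arrays that also shared the ranking genes, and they span the junction-poor tumours. Trf encodes transferrin, an iron carrier abundant in mouse milk, and Ltf encodes lactoferrin, an iron-binding defence protein of milk and neutrophil granules. Trf ranged from 11.91 over a median of 12.74 to 13.26 in milk-high tumours and from 9.48 over 11.17 to 12.82 in milk-low tumours. Its difference of 1.45 ± 0.32 did not pass (limma adjusted p = 0.158). Ltf ranged from 8.44 over 11.48 to 13.59 in milk-high tumours and from 5.61 over 8.45 to 10.89 in milk-low tumours. Its difference of 2.78 ± 0.63 did not pass either (adjusted p = 0.191). Folr1, a folate receptor, differed by 1.22 ± 0.26 (adjusted p = 0.138).

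The members of the milk lists are described by counts beside all genes tested, of which 5547 of 11515 lay on the higher side with a median difference of -0.01. Of the 12 tested genes for other milk proteins, 4 passed (Lalba, Glycam1, Wap and Muc1), 10 lay on the higher side and the median difference was 2.16. Lalba, Glycam1 and Wap had entered this list through the milk-high group, as given above. Without the filter, 3 of 14 passed and the median was 1.74. Csn1s2b and Olah were below the filter on low values. Csn1s2b, a further casein gene, averaged 4.92 ± 2.34 in milk-high tumours and 3.56 ± 0.21 in milk-low tumours, with 2 milk-high tumours and 0 milk-low tumours above the median of the table. Olah, the thioesterase that releases the medium-chain fatty acids of milk, averaged 5.69 ± 2.10 in milk-high tumours and 4.05 ± 0.23 in milk-low tumours, with 4 and 0 tumours above that median. Among these 24 tumours, both genes were thus high in a few milk-high tumours only.

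Genes for making and secreting milk fat showed smaller differences. Of 23 tested, Btn1a1 passed, 22 lay on the higher side and the median difference was 0.38. Btn1a1 had passed the filter through the milk-high group, and without the filter 0 of 25 passed, with a median of 0.38. Thrsp, a regulator of fat synthesis, averaged 7.91 ± 1.66 in milk-high tumours and 5.96 ± 1.76 in milk-low tumours (limma adjusted p = 0.812). Xdh, the partner of Btn1a1 in globule release, averaged 10.07 ± 0.80 in milk-high tumours and 9.05 ± 1.08 in milk-low tumours (adjusted p = 0.895). Scd1, a fatty acid desaturase, averaged 12.62 ± 0.54 and 11.90 ± 0.79, and Mfge8, the lactadherin gene, 12.39 ± 0.38 and 11.84 ± 0.62, in milk-high and milk-low tumours (adjusted p = 0.895 each). Thrsp was low in many milk-low tumours (median 5.41), whereas the lowest milk-low values were 7.78 for Xdh, 10.06 for Scd1 and 10.81 for Mfge8. Among the 14 genes of lactose synthesis and milk transport, none passed (0 of 14), 11 lay on the higher side and the median was 0.27. The list ran from Slc2a1, a glucose transporter, at -0.39 ± 0.27 to Folr1 at 1.22 ± 0.26.

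The pathway that acts on milk genes showed no call. Of 23 tested genes of lactogenic signalling, 0 passed, 16 lay on the higher side and the median difference was 0.12. Stat5a averaged 8.89 ± 0.47 in milk-high tumours and 8.24 ± 0.67 in milk-low tumours, a difference of 0.64 ± 0.23 (limma adjusted p = 0.873). Stat5b differed by 0.48 ± 0.20 (adjusted p = 0.896). Elf5 ranged from 8.62 over a median of 9.66 to 11.04 in milk-high tumours and from 4.13 over 8.56 to 11.02 in milk-low tumours, and its difference of 1.31 ± 0.54 did not pass (adjusted p = 0.896). The milk-low tumour at 11.02 was thus close to the highest milk-high value.

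Feedback inhibitors that Stat5 induces differed by 1.04 ± 0.42 for Socs2 and by 0.23 ± 0.16 for Cish, neither of which passed (adjusted p = 0.896 and 0.915). Gata3, a luminal transcription factor, averaged 10.10 ± 0.63 in milk-high tumours and 9.00 ± 1.08 in milk-low tumours (adjusted p = 0.741). Tph1, the enzyme of mammary serotonin synthesis, averaged 6.16 ± 1.70 and 4.59 ± 1.10 in milk-high and milk-low tumours (adjusted p = 0.857). The prolactin receptor gene Prlr had no probe set with its symbol alone and was not analysed here.

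**Figure D3:**
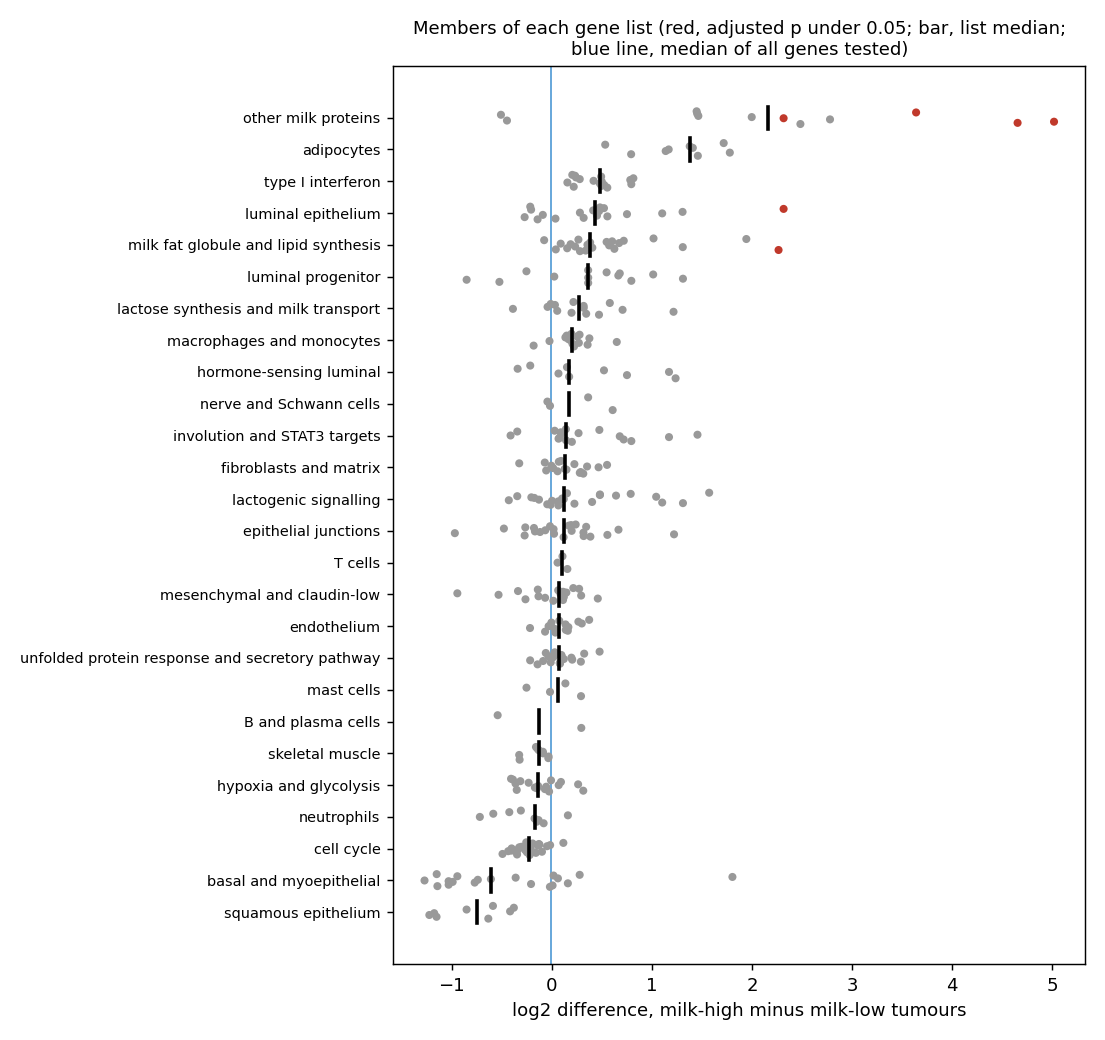
The plot of the gene lists gives the log2 difference, milk-high minus milk-low tumours, of each tested member (points; red where the limma adjusted p was under 0.05) with the list's median as a black bar and the median of all genes tested as a blue line. Lists run from the highest median, 2.16 for other milk proteins, down to -0.74 for squamous epithelium. The adipocyte list stands next to the milk proteins with a median of 1.38.

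Luminal lists leaned the same way with few calls. Of 18 tested luminal genes Muc1 passed, 13 lay on the higher side and the median was 0.43. Krt19, a luminal keratin, differed by 1.31 ± 0.53 and Cldn7, a tight junction gene, by 0.56 ± 0.31 (limma adjusted p = 0.896 and 0.905). Of 13 luminal progenitor genes 0 passed and 10 lay on the higher side. Kit, the receptor that marks these progenitors, averaged 10.17 ± 0.68 in milk-high tumours and 9.51 ± 1.59 in milk-low tumours (adjusted p = 0.915). Lbp and Lcn2, secreted defence proteins, differed by 1.01 ± 0.32 and 0.68 ± 0.24 (adjusted p = 0.741 and 0.835).

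Hormone-sensing genes gave no call either (0 of 9, with 7 on the higher side). Esr1, the oestrogen receptor gene, averaged 6.78 ± 0.90 in milk-high tumours and 6.60 ± 1.00 in milk-low tumours, a difference of 0.17 ± 0.37 (limma adjusted p = 0.972). Pgr, the progesterone receptor gene, was below the filter and averaged 5.87 ± 1.49 in milk-high tumours and 5.06 ± 1.19 in milk-low tumours. Cited1, a coregulator found in hormone-sensing luminal cells, differed by 1.24 ± 0.49 and Igfbp5, a binding protein of insulin-like growth factors, by 1.17 ± 0.47 (adjusted p = 0.896 each).

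Basal and squamous genes lay mostly on the lower side in milk-high tumours and none passed. Of 19 basal and myoepithelial genes 6 lay on the higher side and the median was -0.61. Krt5 ranged from 5.48 over a median of 9.18 to 13.01 in milk-high tumours and from 5.37 over 11.85 to 13.32 in milk-low tumours. Its difference of -1.27 ± 1.07 was close to its error (limma adjusted p = 0.924). Krt14 differed by -0.99 ± 0.64 and Trp63, the basal transcription factor, by -1.15 ± 0.67 (adjusted p = 0.910 and 0.905). Each group held tumours at both ends of the range of these genes, so milk-high tumours were not uniformly free of basal expression.

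Within the basal list, Oxtr, the oxytocin receptor of myoepithelial cells, leaned the other way, at 7.98 ± 2.21 in milk-high tumours and 6.18 ± 1.69 in milk-low tumours (adjusted p = 0.896). Itgb4, a hemidesmosome integrin, differed by -0.77 ± 0.32, and Cdh3, P-cadherin, by -1.14 ± 0.52 (adjusted p = 0.896 each). Of 20 squamous genes on the array 8 passed the filter, 0 of them lay on the higher side and the median was -0.74, with Sbsn, a cornified envelope gene, at -0.85 ± 0.52. The highest squamous scores were 3.41 in sham replicate 8 among milk-high tumours and 3.81 in sham replicate 3 among milk-low tumours.

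Proliferation and mesenchymal genes gave no call. Of 24 cell cycle genes 1 lay on the higher side, the median was -0.22 and 0 passed. That median depended on the groups taken. It was -0.28 with no tumour set aside, -0.10 with 18 set aside and 0.005 for the top 18 against the bottom 18. Mki67 averaged 10.06 ± 0.43 in milk-high tumours and 10.19 ± 0.51 in milk-low tumours (limma adjusted p = 0.955). Ccne1, which encodes cyclin E1, differed by -0.43 ± 0.19, and Birc5, the survivin gene, by -0.49 ± 0.23 (adjusted p = 0.896 each). Of 18 mesenchymal genes 11 lay on the higher side with a median of 0.08, and Vim differed by 0.07 ± 0.15. Of 23 junction genes 14 lay on the higher side with a median of 0.12, and Cldn8 differed by 1.22 ± 0.45 (adjusted p = 0.895).

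Secretory stress and involution lists showed small shifts with 0 calls. The unfolded protein response list had a median of 0.07 over 20 genes, and its member Xbp1, a factor needed by secretory cells, differed by 0.48 ± 0.18 (limma adjusted p = 0.896). Of 17 genes of involution and Stat3 targets, 15 lay on the higher side, with a median of 0.14. Lrg1, a secreted glycoprotein, averaged 8.64 ± 0.82 in milk-high tumours and 7.18 ± 1.53 in milk-low tumours (adjusted p = 0.773). The hypoxia list had a median of -0.14 over 17 genes, 4 of them on the higher side.

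All 16 tested type I interferon genes lay on the higher side, with a median difference of 0.49, and 0 passed. Rsad2, an antiviral enzyme gene, averaged 8.82 ± 0.86 in milk-high tumours and 8.01 ± 0.73 in milk-low tumours (limma adjusted p = 0.896). Oas2, Ifit3 and Stat2 differed by 0.78 ± 0.34, 0.80 ± 0.36 and 0.49 ± 0.20 (adjusted p = 0.896 each). Interferon genes vary together within a tumour, so the 16 are not 16 separate observations. Their score, an average of centred log2 values, ranged from -0.62 to 1.25 in milk-high tumours and from -2.02 to 0.94 in milk-low tumours, so the groups overlapped over most of the range. Macrophage genes had a median of 0.21 over 15 genes and neutrophil genes -0.17 over 9, with 0 calls in either list.

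All 9 tested adipocyte genes lay on the higher side in milk-high tumours, with a median of 1.38, and 0 passed. Cidec, a lipid droplet protein of fat cells, averaged 8.16 ± 2.42 in milk-high tumours and 6.38 ± 1.91 in milk-low tumours. Plin4, Retn and Adipoq differed by 1.38 ± 0.65, 1.72 ± 0.85 and 1.46 ± 0.74 (limma adjusted p = 0.896 for each of the 4 genes). A score was computed per tumour and list by centring each gene on its average across the 45 tumours and averaging the centred log2 values. The adipocyte score ranged from -1.53 over a median of 0.61 to 4.43 in milk-high tumours, and from -1.54 over -0.83 to 3.53 in milk-low tumours. The skeletal muscle score ranged from -1.15 over -0.66 to 5.56 in milk-high tumours and from -1.08 over -0.79 to 4.75 in milk-low tumours.

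A fat or muscle score above 2 occurred in 3 milk-high tumours (30 cGy replicate 1 and sham replicates 9 and 14) and in 3 milk-low tumours (80 cGy replicate 1 and sham replicates 3 and 15). Without these 6 tumours, limma called 2 genes in 9 against 9 tumours. Lalba differed by 5.33 (adjusted p = 0.000448) and Wap by 3.55 (0.0138). The differences of the other called genes stayed of similar size without passing, at 3.93 for Glycam1 and 1.66 for Fam174b (adjusted p = 0.0697 each), 2.23 for Muc1 (0.247) and 2.12 for Btn1a1 (0.224). The adipocyte list then had a median of 1.03 over 7 genes. With the adipocyte score as a covariate 4 genes were called, and Muc1 (0.0560) and Btn1a1 (0.144) were not. Several fat synthesis genes are expressed by fat cells as well as by alveolar cells, and how much of their difference fat tissue carries was not tested.

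Host exposure was not used in choosing the tumours. Of the milk-high tumours, 9 came from Si-irradiated hosts and 3 from sham hosts. Of the milk-low tumours, 6 came from Si-irradiated hosts and 6 from sham hosts. The odds ratio was 2.86 (95% confidence interval 0.41 to 25.1, Fisher's exact test, two-sided p = 0.400), so no difference in host exposure was detectable with 24 tumours. Over the 36 ranked tumours, the median casein mean was 8.85 in 13 tumours of sham hosts, 9.21 in 8 at 10 cGy, 10.77 in 9 at 30 cGy and 10.69 in 6 at 80 cGy. The ranges overlapped widely, from 5.26 to 12.29 at sham, 7.22 to 12.09 at 10 cGy, 7.07 to 12.55 at 30 cGy and 4.27 to 11.48 at 80 cGy.

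The difference between milk-high and milk-low tumours was also taken within each kind of host. For Lalba it was 5.20 ± 0.92 in Si-irradiated hosts (9 against 6 tumours) and 5.05 ± 1.23 in sham hosts (3 against 6). For Wap it was 3.65 ± 0.68 in Si-irradiated hosts and 3.63 ± 0.91 in sham hosts, and for Glycam1 4.34 ± 0.79 in Si-irradiated hosts and 5.72 ± 1.06 in sham hosts. Btn1a1 gave 2.03 ± 0.53 and 3.04 ± 0.71, Muc1 1.97 ± 0.57 and 2.63 ± 0.77, and Fam174b 1.62 ± 0.31 and 1.39 ± 0.42, in Si-irradiated and sham hosts. All 6 genes thus had the same sign in both. A limma interaction term called 0 of 11515 genes (0%; lowest adjusted p 0.9996). An unadjusted interaction p under 0.05 occurred in 357 genes, less than the share of about 0.05 that would have it if no gene differed. The estimates for sham hosts rest on 3 milk-high tumours. With host group, sham or dose, as a covariate, limma called 4 genes, Lalba, Glycam1, Wap and Fam174b. Fam174b then differed by 1.39 (limma adjusted p = 0.0396). Muc1 (adjusted p = 0.133) and Btn1a1 (0.131) no longer passed.

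**Figure D4:**
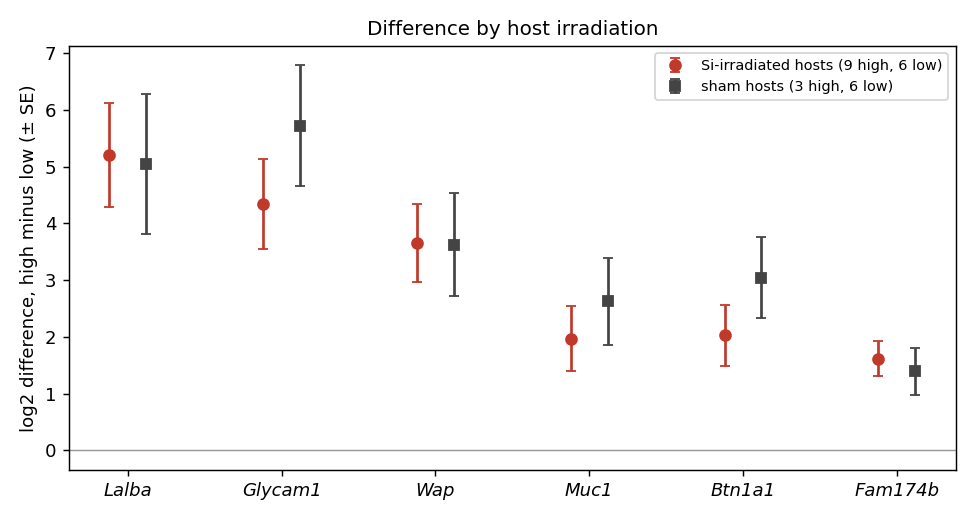
The plot of differences by host gives the log2 difference, milk-high minus milk-low, on the vertical axis for each of the 6 called genes, in tumours of Si-irradiated hosts (circles, 9 against 6) and of sham hosts (squares, 3 against 6). Bars are standard errors. Values range from 1.39 for Fam174b to 5.72 for Glycam1, both in sham hosts, and lie above 0 for every gene in both kinds of host.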

How the data were processed

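RNA of 45 tumours was measured on single-colour Affymetrix arrays, 1 per tumour. The authors deposited log2 values, 1 per probe set and array, that came from RMA in oligo, which corrects background, equalizes the arrays' distributions and summarizes probes, per the submitters' processing notes. No version of either is given in the sources used here. They ran from 1.34 to 14.06, with array medians from 5.48 to 5.80. Of 35556 probe sets, 21218 had 1 symbol, 1881 several and 12457 none, and 21185 matched RefSeq genes. Each of 18820 genes was represented by its single-symbol probe set with the highest mean, which decided among several for 1386 genes. A gene was tested where it exceeded the table's median, 5.67, in at least 8 of the 24 tumours. The 7 genes of the selection rule were left out of testing.

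Differences were fitted with limma 3.58.1 (lmFit and eBayes, two-sided) in R 4.3.3, with Benjamini-Hochberg adjustment, and errors of differences are standard errors. The limma steps were tried on simulated data with independent genes and fixed groups. The simulation did not imitate the choice of tumours by casein level. Named genes were the called genes, up to 4 per list with the smallest p, a set named whatever its values, and the 5 with the highest Pearson r with the casein mean. The members, the 26 gene lists and the tests were chosen with earlier results of these data known. Alternatives covered filters, probe sets, weights, covariates, blocks, the ranking genes, group sizes and left-out tumours. The number of arrays limits precision. The labels number tumours within host groups without saying that each came from its own animal. The p-values set each difference against the spread between these tumours, which the main test took as independent. No replicate number pairs milk-high with milk-low tumours by label. Over 10 pairs of equal replicate number, each from different host groups, deviations correlated at -0.26 to 0.27, above 0.1 in 2.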

Additional observations from a re-analysis of the deposited data

How the results depend on the processing

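The count of 6 called genes stayed between 4 and 8 under 16 of 23 alternatives. It was 3 when Csn3 was left out of the ranking, 3 for the top 9 against the bottom 9, 2 without the tumours with fat or muscle, 0 when 18 tumours were set aside in the first step (limma, 9 against 9) and 10 for a slope on the casein mean over 36 tumours. Higher calls numbered 3 for the top 18 against the bottom 18. Lower calls numbered 1 there (Gli2) and 1 when every probe set was tested (Ciart), both named after their values were seen. When no tumour was set aside, 137 genes were called, 115 higher and 22 lower. There, 6 of the bottom 12 were junction-poor tumours, and Itgb4 (1.15), Krt5 (0.66), Krt14 (0.27) and Vim (-0.24) changed sign. The replicate number as a block left 10 residual degrees of freedom and 1 call, Lalba; the numbers do not pair these tumours, and under the block Krt8 was -0.0076 and Krt18 -0.034. Krt18 (-0.0056) and Esr1 (-0.15) also changed sign without the tumours with fat or muscle, Esr1 (-0.24), Vim (-0.024) and Mki67 (0.043) with the adipocyte covariate, and Mki67 (0.0096) with 18 tumours set aside. None of these genes passed the test in either direction. Leaving out 1 tumour at a time gave 4 to 9 calls. Over the 23 alternatives Lalba and Wap were called in 20, Glycam1 and Fam174b in 19, Muc1 in 12 and Btn1a1 in 10, and the cause was not tested. The adipocyte covariate, 1 tumour per code stem and the left-out tumours were chosen after seeing the data. The interaction, refitted with no filter and for the top 18 against the bottom 18, gave 0 calls in both, and the odds ratio for host exposure was 3.37 (Fisher's exact test, p = 0.164) for the top 18 against the bottom 18 and 5.51 (p = 0.0995) with no tumour set aside. The tumours without which Btn1a1 and Muc1 both lost their calls were, among milk-high tumours, 30 cGy replicate 1, sham replicates 8 and 14 and 10 cGy replicate 4, and, among milk-low tumours, 80 cGy replicates 1 and 4, sham replicates 3, 4, 7 and 18 and 10 cGy replicates 2 and 7. Muc1 alone was lost without 30 cGy replicates 5, 7 and 8, 10 cGy replicate 9 and 80 cGy replicate 2. Their adjusted p was at most 0.0887 in each.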
